A study of Mus musculus with 105 samples.

Results

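Pramel6, Pramel7, Gata2, Ffar3, Stk33, Srarp and Cd3d are 7 autosomal genes that female mouse embryonic stem cells (mESCs) expressed in 2i/Lif medium and that stood at a small part of that level once the medium was withdrawn. They were picked by name, from measurements in these same libraries, as strong early falls, so the fall itself is described here without a test. For Gata2 the description as a gene switched off did not hold, because its level rose again from day 2. All 7 had a row among the 52108 genes of the bulk count tables, and 6 of them, all but Srarp, were analysed in single cells.

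Cells of the line TX1072 and of its deletion derivatives were collected at days 0, 1, 2, 3 and 4 of 2i/Lif withdrawal. TX1072 is a clone (A3) of a female F1 hybrid line with 1 genome from C57BL6/J (B6) and 1 from Cast/EiJ (Cast), in which Xist on the B6 X chromosome is driven by a promoter that responds to doxycycline, with the transactivator rtTA in Rosa26. The deletion lines were derived from TX1072 and lacked 773 kb around Xist (the X inactivation centre, Xic): on the B6 X in TXdXicB6 (chrX:103182701-103955531, mm10, clone A1) and on the Cast X in TXdXicCast (chrX:103182257-103955698, clone A6). TXdXicB6 thus no longer carried the doxycycline-responsive Xist allele, which TX1072 and TXdXicCast kept. Each line was 1 clone, so a difference between deletion lines is a difference between 2 clones. Day 0 was culture on serum with Lif at 1000 U/ml, 3 µM of the Gsk3 inhibitor CT-99021 and 1 µM of the MEK inhibitor PD0325901, and days 1 to 4 were culture without these 3 factors on fibronectin. Each line and day had 3 bulk RNA libraries, from differentiations started on different days. Single cells of TX1072 came from 1 culture per day, with 277, 325, 341, 257 and 272 cells kept at days 0 to 4. By the labels the single-cell libraries of day 1 were sequenced in 2 runs, 1 of them a RapidRun, and those of other days in 1 run. The day 1 counts were taken to hold both runs, so sequencing cannot be told apart from day where day 1 cells are compared with others.

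The bulk libraries held 19827011 to 39628784 counts in TX1072, 20246434 to 49962859 in TXdXicB6 and 16906263 to 57920260 in TXdXicCast. Levels are given as CPM, the count scaled to a fixed library total, after TMM scaling, which was done once for TX1072 and once for the deletion lines together. TX1072 libraries were made with another kit and read length than the deletion lines, and levels were therefore not tested between TX1072 and the deletion lines. The 3 TXdXicCast libraries of day 0 came from degraded RNA that was fragmented for 5 min at 85 °C in place of 8 min at 94 °C. These 3 libraries had 0.135, 0.320 and 0.200% mitochondrial counts, below the 0.690, 1.36 and 1.64% of the TXdXicB6 libraries of that day, and RNA quality cannot be told apart from the line in any value that uses them. One TXdXicB6 library of day 0, replicate 1, also stood apart, with 5.21% of its counts assigned to an allele against 33.3% and 31.4% in replicates 2 and 3. In TX1072, replicate 3 of day 0 had 7.90% mitochondrial counts against 2.47 and 1.92% in replicates 1 and 2, and replicate 2 of day 3 had 8.57% against 1.83 and 2.12%. Over 9 genes of the deleted interval the B6 share of allele-assigned counts was 49.1% in TX1072, 0.0355% in TXdXicB6 and 99.9% in TXdXicCast, as the line names state.

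The 2i/Lif medium holds mESCs in the naive state of the preimplantation epiblast: the MEK inhibitor blocks ERK signalling, the Gsk3 inhibitor stabilises beta-catenin, and Lif acts through Stat3. After withdrawal the naive programme is taken down and cells move towards a formative and then primed state. The 7 genes code for proteins with little in common. Pramel6 and Pramel7 belong to the PRAME family of leucine-rich repeat proteins and are known from early embryos and naive mESCs. Gata2 is a zinc finger transcription factor of blood and trophoblast. Ffar3 is a G protein-coupled receptor for short-chain fatty acids. Cd3d is a chain of the CD3 signalling complex of the T cell receptor. Stk33 is a serine/threonine kinase related to the calmodulin-dependent kinases. Srarp is a regulator of steroid receptors.

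The genes lay at 6 places in the genome (GRCm38, with exonic length from the GENCODE annotation). Pramel6 (ENSMUSG00000025838) was at chr2:87506565-87510872 on the plus strand with 2084 exonic bases, and Pramel7 (ENSMUSG00000025839) at chr2:87489087-87497093 on the minus strand with 2134. This pair is divergent, with 9.472 kb between the gene bodies. Gata2 (ENSMUSG00000015053) was at chr6:88193891-88207032, plus strand, with 5398 exonic bases. Ffar3 (ENSMUSG00000019429) was at chr7:30854330-30856178, minus strand, with 1849 exonic bases, and Stk33 (ENSMUSG00000031027) on the same chromosome at chr7:109279223-109439081, minus strand, with 2654. Srarp (ENSMUSG00000070637) was at chr4:141432672-141436105, minus strand, with 905 exonic bases. Cd3d (ENSMUSG00000032094) was at chr9:44981786-44987339, plus strand, with 1815.

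The sequences before the transcription start show whether genes that fell together share letters known to bind factors of the withdrawn pathways. RefSeq promoter windows (GRCm38.p6) matched 6 of the 7 genes, Stk33 having none, and the 250 bases before the start are printed 5′ to 3′ on the strand of the gene for the members whose window overlapped no exon of their own. Motif matches are in capitals. In Ffar3 (chr7:30856179-30856428) they mark a GATA motif, in Srarp (chr4:141436106-141436355) a Tcf/Lef motif on the opposite strand, in Cd3d (chr9:44981536-44981785) a Stat motif and then a Tcf/Lef motif on the opposite strand. Pramel6 (chr2:87506315-87506564) and the outer start of Gata2 (chr6:88193641-88193890) had no match.
Ffar3: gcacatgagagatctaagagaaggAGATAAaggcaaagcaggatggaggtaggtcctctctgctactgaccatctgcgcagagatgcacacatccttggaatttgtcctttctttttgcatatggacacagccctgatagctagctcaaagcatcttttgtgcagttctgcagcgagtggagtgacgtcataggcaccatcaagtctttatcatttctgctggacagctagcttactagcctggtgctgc
Srarp: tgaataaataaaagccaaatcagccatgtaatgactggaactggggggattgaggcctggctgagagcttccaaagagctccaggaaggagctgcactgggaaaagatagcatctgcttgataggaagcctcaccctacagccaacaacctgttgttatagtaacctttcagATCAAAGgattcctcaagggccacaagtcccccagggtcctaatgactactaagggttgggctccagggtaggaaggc
Cd3d: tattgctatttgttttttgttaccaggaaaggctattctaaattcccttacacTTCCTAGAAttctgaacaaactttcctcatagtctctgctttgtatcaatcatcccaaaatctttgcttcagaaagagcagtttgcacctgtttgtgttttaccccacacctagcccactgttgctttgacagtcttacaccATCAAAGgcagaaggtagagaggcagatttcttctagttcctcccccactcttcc
Pramel6: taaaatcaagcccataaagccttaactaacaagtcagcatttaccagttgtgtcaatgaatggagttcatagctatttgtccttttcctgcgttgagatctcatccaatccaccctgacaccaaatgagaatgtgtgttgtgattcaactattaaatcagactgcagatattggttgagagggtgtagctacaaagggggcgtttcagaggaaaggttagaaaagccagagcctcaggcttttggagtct
Gata2: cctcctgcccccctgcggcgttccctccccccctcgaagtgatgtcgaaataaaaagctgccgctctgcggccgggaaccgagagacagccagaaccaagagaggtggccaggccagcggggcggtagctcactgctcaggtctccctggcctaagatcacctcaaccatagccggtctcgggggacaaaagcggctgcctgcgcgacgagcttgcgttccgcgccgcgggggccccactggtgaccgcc

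Letters for 7 motifs, none of which contains another, were searched on both strands and counted in 32851 RefSeq windows of the same length. The Stat motif, TTCNNNGAA, was in 7.02% of all windows. The motif of GATA factors, AGATAA, was in 9.99%, and that of the Tcf/Lef partners of beta-catenin, CTTTGAT, in 3.21%. The Esrrb motif TCAAGGTCA was in 0.387%, the Klf motif CCACACCC in 3.20% and the octamer ATTTGCAT in 1.60%. The E-box was searched as CACGTG and was in 6.02%. In Cd3d the Stat match lay 197 to 189 bases and the Tcf/Lef match 55 to 49 bases before the start. The Tcf/Lef match of Srarp lay 78 to 72 bases and the GATA match of Ffar3 226 to 221 bases before the start. No motif was common to the 5 windows. They also differed in base composition: the Gata2 window held 22 CpG dinucleotides against a median of 6 over all windows, while Ffar3 held 3, Pramel6 held 2, and Srarp and Cd3d held 0. These matches are letters in a window and carry no measurement of binding.

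At day 0 the members were unequally abundant, and the order per kilobase of exon depended on the line. In TX1072 the level per kilobase was 62.5 ± 3.08 CPM for Pramel6 (SD, n = 3, as for all bulk values), 56.4 ± 5.84 for Pramel7, 37.7 ± 3.11 for Stk33, 31.6 ± 6.49 for Srarp, 21.9 ± 8.36 for Ffar3, 10.7 ± 0.262 for Cd3d and 7.67 ± 1.59 for Gata2. Libraries of Pramel6 and Pramel7 overlapped, and so did those of Stk33 and Srarp and of Srarp and Ffar3, while Cd3d lay above Gata2 without overlap. Pramel6 was also first in TXdXicB6 (46.7 CPM per kb) and TXdXicCast (44.7). Gata2 was last in TX1072 but stood above Ffar3 and Cd3d in the deletion lines, at 16.6 and 19.4 CPM per kb.

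Within 1 day of withdrawal the members, grouped by these values, had parted into a fast group of 3, Gata2, Ffar3 and Srarp, and a slower group of 4, Stk33, Cd3d, Pramel6 and Pramel7. The fast group was at 0.836 to 3.04% of its day 0 level in every line, given as the mean over replicates, and the slower group at 5.46 to 60.1%. Bulk RNA cannot tell fewer cells that express a gene from less RNA per cell. The mean level was below 10% of day 0 for 4, 3 and 4 of the 7 genes at day 1 in TX1072, TXdXicB6 and TXdXicCast. Of the 18699, 19610 and 19622 genes compared in this way, without a test, 1.24, 1.49 and 1.74% were that low. At day 4 the counts of members were 6, 7 and 6, beside 3.60, 3.52 and 3.87% of those genes. Nothing is read from these counts because the members were chosen for the fall.

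**Figure D1:**
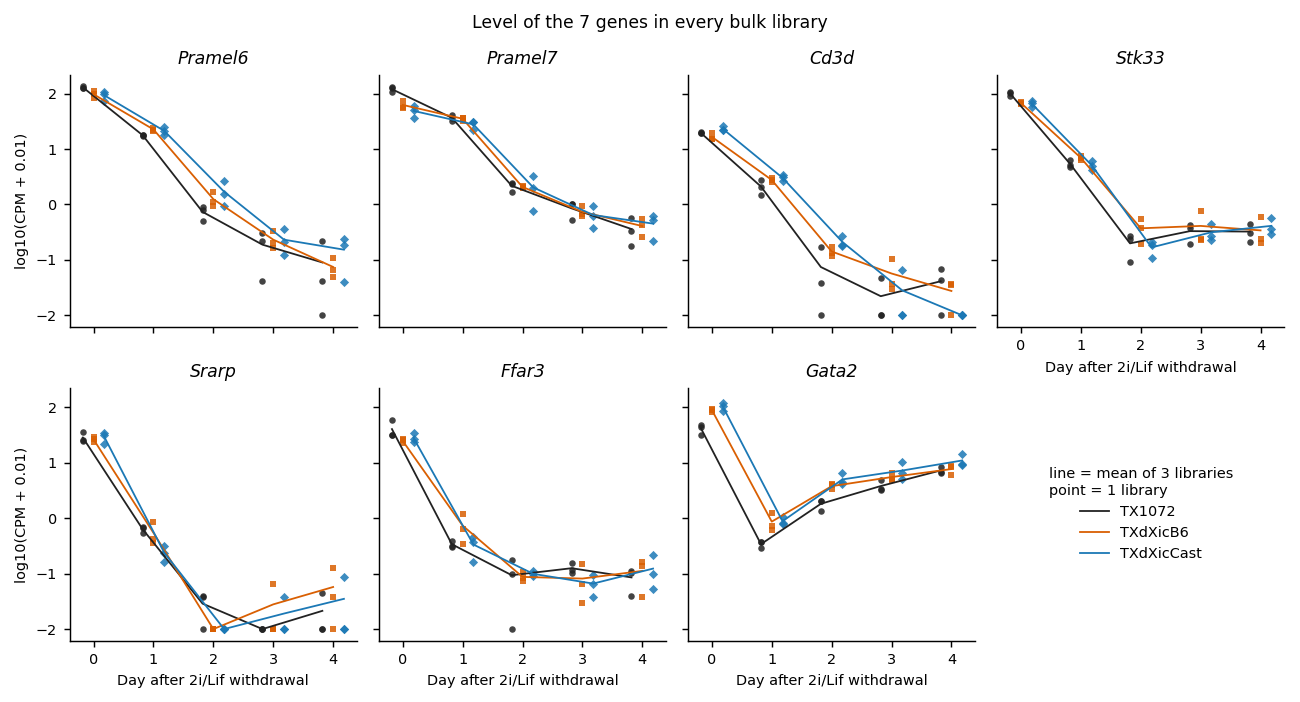
Level of each of the 7 genes (log10 of CPM plus 0.01, y axis) by day of 2i/Lif withdrawal (x axis) in TX1072, TXdXicB6 and TXdXicCast. Points are libraries and lines join the means of 3. In 6 panels the level falls over days 1 and 2 and stays low to day 4, nearest to 0 for Srarp and Cd3d, and in the Gata2 panel they dip at day 1 and climb from day 2 to day 4 in all 3 lines.

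Gata2 was one of the 3 fast members and was the exception to a lasting fall. In TX1072 its level was 31.8, 44.1 and 48.3 CPM in the 3 libraries of day 0 and 0.357, 0.357 and 0.278 CPM at day 1. From there it climbed to 2.05, 1.33 and 2.05 CPM at day 2, to 4.88, 3.19 and 3.33 CPM at day 3 and to 6.59, 8.28 and 6.94 CPM at day 4. At days 2, 3 and 4 every library stood above every library of the day before, and at day 4 every library was still below every library of day 0.

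In the deletion lines Gata2 also dipped at day 1, and its mean climbed on each later day. The means of days 2 and 3 were 3.78 and 5.52 CPM in TXdXicB6 and 5.01 and 7.25 CPM in TXdXicCast. Unlike in TX1072, libraries of adjacent days overlapped, from day 3 to day 4 in TXdXicB6 and at both steps after day 2 in TXdXicCast. TXdXicB6 held 95.02, 89.7 and 84.2 CPM at day 0, 1.25, 0.720 and 0.608 CPM at day 1 and 8.36, 8.77 and 5.97 CPM at day 4. TXdXicCast held 122, 85.1 and 108 CPM, then 0.769, 1.04 and 0.815 CPM, then 9.23, 9.38 and 14.4 CPM. Relative to day 0 of the same replicate, the level at day 4 was 18.0% ± 3.27 in TX1072, 8.56% ± 1.36 in TXdXicB6 and 10.7% ± 2.91 in TXdXicCast. The day 4 level was 22.0, 8.97 and 12.6 times the day 1 level, with no overlap of libraries in any line. At day 4 Gata2 was the most abundant member per kilobase in TX1072, at 1.35 CPM per kb, and the other 6 were at or below 0.164.

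Ffar3, the fatty acid receptor, fell as early as Gata2 but did not come back. TX1072 libraries held 31.3, 32.0 and 58.4 CPM at day 0 and 0.297, 0.383 and 0.309 CPM at day 1, which is 0.891% ± 0.337 of day 0. The library at 58.4 CPM is the one with 7.90% mitochondrial counts. From day 2 to day 4 no TX1072 library exceeded 0.164 CPM. TXdXicB6 held 25.5, 22.5 and 26.5 CPM at day 0 and then 0.641, 1.20 and 0.338 CPM at day 1 (3.04% ± 2.08). TXdXicCast held 26.4, 23.6 and 34.3 CPM and then 0.369, 0.452 and 0.155 CPM (1.25% ± 0.740). Libraries of day 0 and day 1 were far from overlapping in each line.

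Srarp, the steroid receptor regulator, came nearest to complete loss in TX1072. In TX1072 it went from 24.2, 35.3 and 26.2 CPM to 0.654, 0.689 and 0.525 CPM at day 1 (2.22% ± 0.415). At day 3 the 3 TX1072 libraries had no count, which is at least 709-fold lower than day 0 when the floor is set at 3 counts over the group. TXdXicB6 went from 23.4, 26.4 and 29.3 CPM to 0.855, 0.343 and 0.405 CPM (2.11% ± 1.34) and TXdXicCast from 21.7, 33.9 and 31.9 CPM to 0.308, 0.226 and 0.155 CPM (0.857% ± 0.494). At day 2 neither deletion line had a count, at least 792-fold lower in TXdXicB6 and at least 902-fold lower in TXdXicCast. At day 3 TXdXicB6 had 2 counts and TXdXicCast 1, and at day 4 both had 4, those of TXdXicCast all in replicate 1.

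Stk33, the kinase, was intermediate. TX1072 libraries held 105, 104 and 90.6 CPM at day 0, 4.69, 5.11 and 6.36 CPM at day 1 (5.46% ± 1.37) and 0.224, 0.261 and 0.0822 CPM at day 2. TXdXicB6 stood at 66.3, 69.5 and 67.1 CPM and then at 6.34, 6.79 and 7.63 CPM (10.2% ± 0.996). TXdXicCast stood at 56.6, 73.0 and 67.7 CPM and then at 4.24, 6.14 and 4.89 CPM (7.71% ± 0.623). From day 2 on a low level was kept in every line, with means between 0.184 and 0.601% of day 0. Stk33 shares sequence space with Gm9105, a processed pseudogene on the same strand inside it, which had 252 counts over the TX1072 libraries of day 0, so reads of the pseudogene and the kinase gene may have been split uncertainly.

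Cd3d, the T cell receptor chain, lost most of its RNA by day 1 and nearly all of the rest by day 2. In TX1072 it had 19.1, 19.1 and 19.9 CPM at day 0, 2.05, 2.76 and 1.48 CPM at day 1 (10.9% ± 3.50) and 0, 0.0290 and 0.164 CPM at day 2. TXdXicB6 had 19.5, 15.4 and 14.9 CPM and then 2.57, 2.98 and 2.74 CPM (17.0% ± 3.34). TXdXicCast had 21.6, 22.5 and 25.8 CPM and then 2.61, 3.34 and 3.10 CPM (13.0% ± 1.63). At day 4 TXdXicCast had no count, at least 759-fold below day 0, and no library of TX1072 exceeded 0.0596 CPM.

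The PRAME family pair fell last. Pramel6 stood at 137, 128 and 125 CPM in the TX1072 libraries of day 0, at 17.6, 17.5 and 18.0 CPM at day 1 and at 0.485, 0.898 and 0.794 CPM at day 2. In these libraries Pramel7 stood at 130, 125 and 106 CPM, then at 31.8, 36.9 and 41.2 CPM, then at 1.68, 2.46 and 2.36 CPM. The largest relative loss over a single day in TX1072 was, for both genes, that from day 1 to day 2, when Pramel6 went to 4.09% and Pramel7 to 5.90% of the day before.

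In the deletion lines Pramel7 was the member with the largest share of its RNA left at day 1. TXdXicB6 held 56.2, 57.2 and 74.6 CPM of Pramel7 at day 0 and 36.9, 36.5 and 32.4 CPM at day 1 (57.6% ± 12.4), and TXdXicCast held 35.7, 60.4 and 50.5 CPM and then 30.5, 31.1 and 22.0 CPM (60.1% ± 22.1), against 30.9% ± 7.23 in TX1072. Pramel6 went from 85.2, 96.7 and 110 CPM to 24.3, 22.5 and 21.0 CPM in TXdXicB6 (23.6% ± 4.75) and from 74.0, 106 and 99.4 CPM to 20.9, 24.7 and 18.2 CPM in TXdXicCast (23.3% ± 4.97). By day 4 Pramel6 was at or below 0.226 CPM and Pramel7 at or below 0.608 CPM in every library of the 3 lines.

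**Figure D2:**
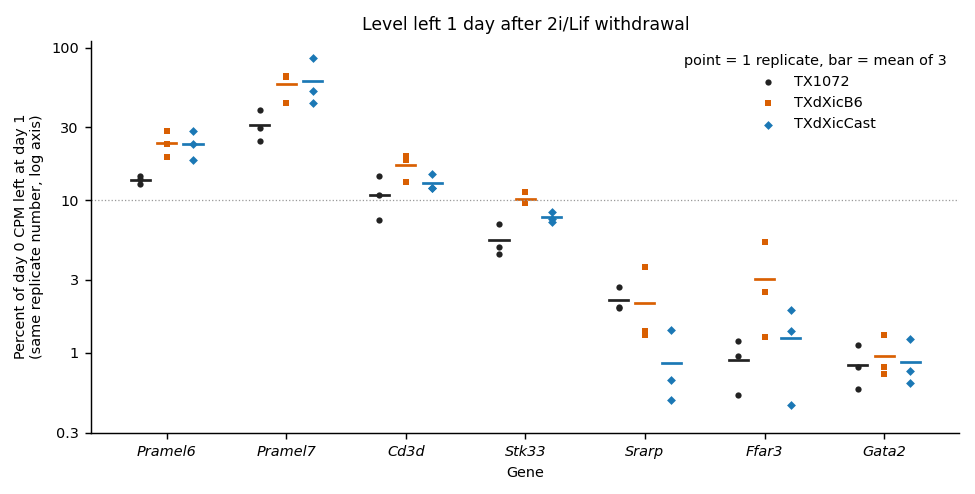
Percent of the day 0 level left at day 1 (log axis) for each of the 7 genes in the 3 lines. Points are replicates, each against its own day 0, bars are means of 3 and the dotted line is at 10%. The means of Gata2, Ffar3 and Srarp lie between 0.836 and 3.04% and those of Pramel7 between 30.9 and 60.1%.

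The order of the slower 4 at day 1 was the same in the 3 lines: Stk33 had the least left, then Cd3d, then Pramel6, then Pramel7. Stk33 lay below Cd3d without overlap of replicates in each line, but Cd3d and Pramel6 overlapped in TX1072 and TXdXicB6. Among Gata2, Ffar3 and Srarp the order changed from line to line. Ranks by log2 change among the 18871 genes tested in TX1072, with 1 as the deepest fall, restate the fall the members were chosen for. At day 4 Pramel6 had rank 5, Ffar3 rank 15, Pramel7 rank 25, Stk33 rank 29 and Gata2 rank 1052. Srarp and Cd3d were then at or under the floor of 3 counts over the group and are given no exact rank. Hoxa9 at rank 2, Aqp8 at rank 4 and Rac2 at rank 6 are not members. At day 1 the ranks were 15 for Gata2, 16 for Ffar3, 38 for Srarp, 104 for Stk33, 228 for Cd3d, 282 for Pramel6 and 863 for Pramel7, so that Gata2 was first of the 7 at day 1 and last at day 4.

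Genes with the most similar course over the 45 bulk libraries were sought by Pearson correlation of log2 CPM, centred within each line, over 18382 genes. These values describe a shared time course and the libraries share depth and batch. For Pramel6 the highest were Jam2 (r = 0.985), Tet2 (0.984) and Pramel7 (0.983), and for Pramel7 they were Mreg (0.990), Jam2 (0.989) and D16Ertd472e (0.988). Stk33 was closest to Tfcp2l1 (0.983), then Sh2d4b and Tubb2b, and Srarp to Prdm14 (0.973), then Arih2 and D230025D16Rik. Tfcp2l1 and Prdm14 are transcription regulators of the naive state and Tet2 oxidises methylcytosine. Ffar3 was closest to Epb41l4b (0.979), then Lap3 and Arih2, and Cd3d to Ticrr (0.974), then Pcsk6 and Slc25a20. Gata2 had other companions, Lhfpl2 (0.973), Sdc2 (0.971) and Sirpa (0.969). Between members r was 0.807 to 0.983 among the 6 without Gata2 and 0.129 to 0.637 for Gata2 with each of them.

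Whether the deletion lines differed in these genes was tested with edgeR, with Benjamini-Hochberg adjustment over 19885 genes. With genes of low counts left out, none of the 7 was called at an adjusted p under 0.05 at any day, where 19.0, 0.382, 0.352, 1.16 and 5.39% of all genes were called at days 0 to 4. At an unadjusted p under 0.05 the counts were 1, 2, 1, 0 and 1. From day 2 on these comparisons say little for the members that had nearly vanished: Srarp had 0 to 4 counts over the 3 libraries of a line, Cd3d 0 to 22 and Ffar3 5 to 15, and at such counts a call was hardly possible. DESeq2 called 1 member, Cd3d, at day 0, and so did edgeR with the replicate as a block. Most members lay within a log2 difference of 0.4 at day 0 (TXdXicCast minus TXdXicB6): −0.06 ± 0.20 (SE) for Pramel6, −0.04 ± 0.20 for Stk33, 0.15 ± 0.26 for Srarp, 0.18 ± 0.24 for Ffar3, 0.22 ± 0.20 for Gata2 and −0.36 ± 0.25 for Pramel7.

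Cd3d was the member nearest to a difference at day 0. The 3 TXdXicCast libraries, at 21.6, 22.5 and 25.8 CPM, lay above the 3 TXdXicB6 libraries, at 19.5, 15.4 and 14.9 CPM, with a log2 difference of 0.49 ± 0.18 and an edgeR adjusted p of 0.0565. It was called by DESeq2 (adjusted p = 0.010), and also by edgeR when the replicate was added as a block. The TXdXicCast libraries are those from degraded RNA. At day 1 its log2 difference was 0.12 ± 0.20.

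At day 1 the 2 estimates farthest from 0 were those of Ffar3 and Srarp, neither of them called. Ffar3 averaged 0.325 CPM in TXdXicCast and 0.727 in TXdXicB6 (log2 difference −1.16 ± 0.42, edgeR adjusted p = 0.543), and replicates overlapped. Srarp differed by −1.16 ± 0.51 (edgeR adjusted p = 0.797), without overlap, and Stk33 by −0.45 ± 0.22 (edgeR adjusted p = 0.901). The fall from day 0 to day 1 was itself compared between the lines: the log2 change in TXdXicCast minus that in TXdXicB6 was −1.34 ± 0.48 for Ffar3 and −1.31 ± 0.57 for Srarp, with edgeR adjusted p of 0.104 and 0.184. With genes of low counts left out, none of the 7 was called in these comparisons of change at days 1 to 4 by edgeR, which at days 2 to 4 rest on the same low counts, and where 3.89, 5.54, 8.40 and 14.2% of all genes were called, and 2, 0, 0 and 0 had an unadjusted p under 0.05. Ffar3 was called at day 1 by DESeq2 (adjusted p = 0.036) and by edgeR without the filter on low counts (adjusted p = 0.035). At day 4 Gata2 was higher in TXdXicCast by 0.51 ± 0.22 (edgeR adjusted p = 0.200), and by 0.13 when replicate 3 was left out. Without the filter on low counts it was called (edgeR adjusted p = 0.029).

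**Figure D3:**
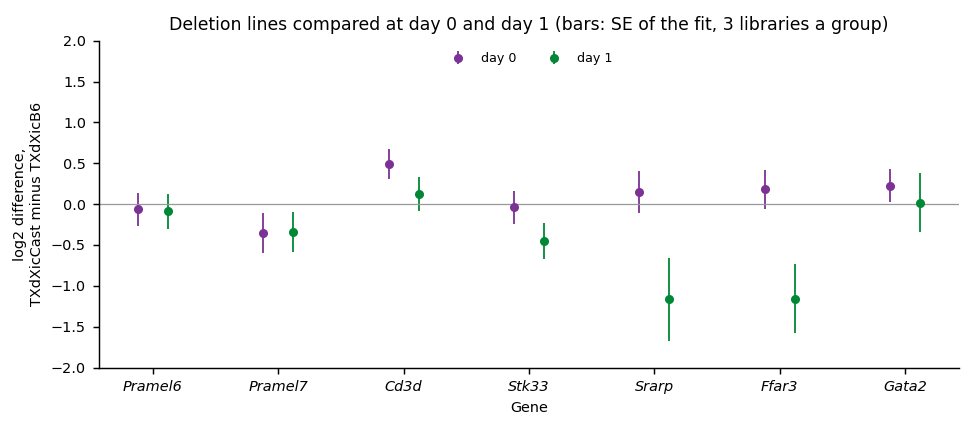
Log2 difference between the deletion lines (TXdXicCast minus TXdXicB6) for each of the 7 genes at day 0 and at day 1. Points are edgeR estimates and bars their SE. Cd3d lies highest at day 0 (0.49), and Ffar3 and Srarp lie lowest at day 1 (−1.16 each), none of them called in this fit. Cd3d at day 0 was called by DESeq2 and with the replicate block.

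The hybrid genome shows from which parental allele the RNA came at day 0, a measure the choice of genes did not use. Cd3d was read mainly from B6, and Ffar3 and Gata2 were read more from Cast, in each of the 3 lines. The B6 share of Cd3d was 90.9, 93.5 and 84.1% in the TX1072 libraries, 87.3, 87.8 and 83.4% in TXdXicB6 and 86.9, 88.6 and 85.1% in TXdXicCast. All 9 libraries thus lay far above an equal share. The log2 ratio of B6 to Cast was 3.14 ± 0.16 (edgeR adjusted p = 7.3e-13), 2.62 ± 0.15 (1.4e-62) and 2.69 ± 0.10 (1.0e-22). Without the TXdXicB6 library of low allele assignment it was 2.60 in that line. Allele bias as such was common: edgeR called 47.8, 43.6 and 52.0% of genes in either direction in TX1072, TXdXicB6 and TXdXicCast, and 27.9, 25.1 and 29.7% with B6 higher, while the median log2 ratio over all genes was 0.0559, 0.0540 and 0.0535. A log2 ratio as high as that of Cd3d was rarer, at 1.85, 2.07 and 2.34% of the 10881, 11520 and 11812 genes tested.

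Ffar3 had B6 shares of 39.3% in TX1072, 39.7% in TXdXicB6 and 35.7% in TXdXicCast over the 3 libraries of each. Its log2 ratios were −0.63 ± 0.09 (edgeR adjusted p = 5.7e-06), −0.61 ± 0.13 (1.3e-05) and −0.84 ± 0.10 (2.1e-09), beside 20.0, 18.6 and 22.4% of all genes called with Cast higher. Gata2 had B6 shares of 32.4%, 31.3% and 34.2%. Its log2 ratios were −1.13 ± 0.40 (edgeR adjusted p = 0.0255), −1.11 ± 0.18 (2.7e-09) and −0.92 ± 0.13 (1.0e-07). In TX1072 the Gata2 value rested on 33 B6 and 69 Cast counts, with library shares of 43.6, 8.33 and 30.4%, and its call was lost without replicate 2 (−0.63, edgeR adjusted p = 0.214), without replicate 3 (−1.10, edgeR adjusted p = 0.152) and in DESeq2 (adjusted p = 0.082).

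Pramel6, Stk33 and Srarp were not called in any line, with log2 ratios of 0.28, 0.24 and 0.16 for Pramel6, −0.02, −0.10 and −0.03 for Stk33 and −0.20, 0.03 and 0.14 for Srarp in TX1072, TXdXicB6 and TXdXicCast. Pramel7 had no allele-assigned count in any library and gives no value. At day 1 the B6 share of the Cd3d RNA that was left was 98.8% in TX1072 (159 B6 and 2 Cast counts), 95.8% in TXdXicB6 (207 and 9) and 89.8% in TXdXicCast (202 and 23). These shares stood above those of day 0 in each line, a difference that was not tested.

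**Figure D4:**
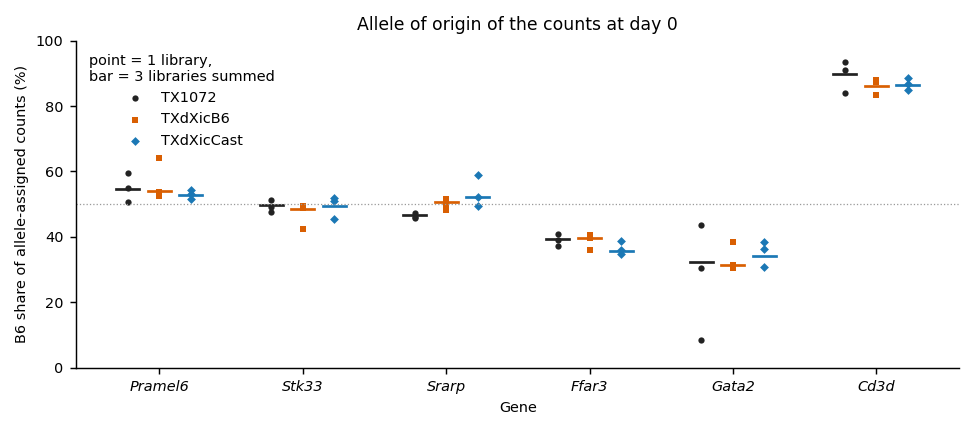
Share of allele-assigned counts that came from B6 (percent, y axis) at day 0 for 6 genes in the 3 lines. Points are libraries, bars are the share over the 3 libraries summed and the dotted line is at 50%. Cd3d stands at 86.1 to 89.9%, Ffar3 at 35.7 to 39.7% and Gata2 at 31.3 to 34.2%.

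The genes next to Cd3d were also read mainly from B6 and also fell, to different extents. Cd3g and Cd3e, which code for the other CD3 chains at this locus, lie 1.355 kb and 11.4 kb from Cd3d. Cd3g was read from B6 at 93.8, 90.8 and 91.7% and Cd3e at 86.9, 83.2 and 80.8% in TX1072, TXdXicB6 and TXdXicCast at day 0, each called by edgeR. In bulk counts Cd3g was more abundant than Cd3d, at a mean of 37.5 CPM in TX1072 at day 0. It stood at 1.28 CPM at day 1 and 0.0312 CPM at day 4. In the summed UMI counts of single cells at day 0 the order was reversed, with Cd3d at 163 CPM and Cd3g at 66.9 CPM. Cd3e went from 6.26 CPM to 3.31 and 0.0648 CPM, and was lower with a log2 change of −0.92 ± 0.25 at day 1 and −6.53 ± 0.41 at day 4. The fall of Cd3g at day 1 was −4.87 ± 0.25, and these falls were not tested against that of Cd3d. In the deletion lines Cd3e started at 20.3 and 20.0 CPM.

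Around Ffar3 the nearest tested gene was Cd22, a B cell surface lectin, at 9.224 kb, and at 30.55 kb lay Ffar2, the other short-chain fatty acid receptor. Ffar2 went from 12.7 CPM at day 0 to 0.0489 CPM at day 1 and 0.0516 CPM at day 4 in TX1072, a log2 change of −7.80 ± 0.43 at day 4, and Cd22 changed by −4.22 ± 0.42. Ffar2 was read at 39.4% from B6 in TX1072 and 41.6% in TXdXicCast, both called, and at 46.1% in TXdXicB6 (edgeR adjusted p = 0.341). Cd22 was at 9.90% in TX1072 and 13.3% in TXdXicCast, both called by edgeR, and was not tested in TXdXicB6.

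Over all 12 tested neighbours that are not members, edgeR called 8 lower and 0 higher at day 1 in TX1072, where 21.1% and 25.3% of all genes were lower and higher. At day 4 it called 10 lower and 1 higher in TX1072 (28.8% and 30.4% of all genes), 9 and 1 in TXdXicB6 (28.5% and 30.1%) and 10 and 0 in TXdXicCast (34.0% and 35.4%). In TX1072 at day 4 the log2 changes were −7.39 ± 1.11 for Hspb7 and −0.53 ± 0.12 for Zbtb17 beside Srarp, −3.10 ± 0.26 for Lmo1 and −2.14 ± 0.27 for Trim66 beside Stk33, and −7.13 ± 0.93 for Gm13738 beside the PRAME pair. Beside Gata2 the elongation factor gene Eefsec changed by −0.60 ± 0.10. Rpn1 was the neighbour that rose (0.42 ± 0.13), a call that was lost without replicate 3. Gm1826, on the other side of the PRAME pair, had 0.18 and was not called. Zbtb17 was read at 40.8%, 44.8% and 44.4% from B6 (called in TX1072 and TXdXicCast) and Rpn1 at 58.3%, 54.0% and 54.5% (called in each), while Eefsec was not called.

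Relatives of the members by family or pathway went in mixed directions at day 4 of TX1072, read against 28.8% lower and 30.4% higher over all genes and a median log2 change of −0.02. Of the PRAME family, 8 of 17 listed genes could be tested, and 3 were lower and 3 higher (median 0.35): Pramef17 (−7.92 ± 0.36) and Pramel3 (−4.84 ± 0.88) fell and Pramef25 (4.65 ± 0.76) and Pramef6 (3.56 ± 0.95) rose. Family members share sequence, so reads may be split between copies. Of 10 GATA factors and blood partners 1 was lower and 4 higher (median 0.00): the erythroid factor Gata1 fell (−2.89 ± 0.48), while Tal1 (3.23 ± 0.47), the endoderm factor Gata6 (3.16 ± 0.60) and Runx1 (2.47 ± 0.37) rose. The only fatty acid receptor tested was Ffar2, which fell. Of 5 genes of the CD3 and T cell receptor complex 4 were lower and 0 higher (median −2.06), with Zap70 at −2.06 and Lat at −1.55, and the kinase Lck was not called. Of 10 calmodulin-dependent kinase relatives 3 were lower and 6 higher (median 0.87), with Camk2d at 3.88, Camk1g at 2.89, Dapk1 at 2.37 and Camk2b at −1.48. Among the receptor genes related to Srarp by function, Esr2 rose by a log2 value of 3.92 and Pgr by 3.53.

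Targets of the 3 withdrawn factors give the context in which the members fell. All 16 naive pluripotency genes were lower at day 4 in TX1072 (median −3.63), led by Klf4 (−5.64 ± 0.22), Prdm14 (−5.25 ± 0.18), Nr0b1 (−4.78 ± 0.16) and Tet2 (−4.74 ± 0.17), and at day 1 they were 13 lower and 2 higher. Over all genes 21.1% were lower and 25.3% higher at day 1, and 28.8% and 30.4% at day 4. Of 12 ERK targets 2 were lower and 7 higher at day 4 (median 1.97), with Spry4 at 7.58, Dusp6 at 6.16, Etv4 at 5.72 and Dusp4 at 5.10. Of 8 Lif and Stat3 targets 6 were lower and 0 higher at day 1, and 4 and 2 at day 4 (median −0.89), with Bcl3 at −4.62, Socs3 at −3.15, Lifr at −2.45 and Osmr at 2.01. The beta-catenin targets of the Gsk3 inhibitor turned: of 10, 8 were lower and 2 higher at day 1, and 2 were lower and 6 higher at day 4 (median 0.58). Cdx1 (−5.06) and Notum (−3.76) were lower at day 4 and T (3.47) and Rnf43 (3.39) higher. Some genes of this list dipped at day 1 and had risen again at day 4, to different extents. At days 0, 1 and 4 of TX1072 Sp5 averaged 21.2, 0.0302 and 14.6 CPM and T averaged 10.4, 0.309 and 116 CPM. T thus ended above its day 0 level, while Gata2, at 41.4, 0.331 and 7.27 CPM, stayed below its own. Sp5 and T were named after their values were seen, and a link to Gata2 was not tested.

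Marker lists checked the labelled cell type, and their calls at day 4 of TX1072 stand beside 28.8% lower and 30.4% higher over all genes. In TX1072 the ES cell markers summed to a mean of 3390 CPM at day 0, with Pou5f1 the most abundant, and to 916 CPM at day 4 (5 lower, 0 higher of 5 tested). Formative markers rose from 220 CPM at day 0 through 830 CPM at day 1 to 1967 CPM at day 2. They then stood at 1721 CPM at day 3 and 792 CPM at day 4 (0 lower, 4 higher of 4 against day 0). Dnmt3b was the most abundant of them, at 1709 CPM at day 2 and 540 CPM at day 4. Fibroblast markers went from 24.5 to 16.1 CPM (2 lower, 2 higher of 5) and markers of 2-cell-like cells from 0.0464 CPM at day 0 through 9.90 CPM at day 3 to 2.72 CPM at day 4 (0 lower, 5 higher of 5).

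Markers of other cell types were set beside Cd3d and Gata2, again with 28.8% of all genes lower and 30.4% higher. The summed level of the 7 T cell markers was 55.4 to 61.6 CPM in the TX1072 libraries of day 0 and 10.8 to 12.6 CPM at day 4, where 4 of the 5 tested were lower and 0 higher. Cd3g was their most abundant gene at day 0. The lowest 2 at day 0, Ptprc, the pan-leukocyte gene, and Cd8a, averaged 0.0384 and 0.0121 CPM in TX1072 and 0 in both deletion lines. The other T cell markers were present, among them Lck, at 8.38 CPM at day 0 and 10.7 CPM at day 4 of TX1072, and Cd4, at 4.59 and 0.284 CPM. The 6 blood progenitor markers summed to 110 to 128 CPM at day 0 and 14.6 to 17.3 CPM at day 4 (1 lower, 2 higher of 4 tested), and Kit made up 119 of the mean of 122 CPM at day 0. The 7 trophoblast markers summed to means of 17.9, 50.2, 48.9, 66.6 and 166 CPM from day 0 to day 4 of TX1072 (2 lower, 4 higher of 6 tested at day 4) and to 34.5, 63.3, 52.7, 50.0 and 113 CPM in TXdXicB6. Their sum was thus higher at day 1 than at day 0, when Gata2 was lower, and both were higher at day 4 than at day 3. The most abundant of them in TX1072 was Cdx2 at day 0 (10.4 CPM) and Eomes at day 1 (33.4 CPM). At day 4 it was Eomes (88.4 CPM), then Krt7 (59.3). The trophoblast factors Cdx2 and Elf5 were at 2.08 and 0.406 CPM at day 4. Cdx2 was thus lower at day 4 than at day 0, unlike the sum. The 6 primitive endoderm markers rose from a mean of 2.33 to 21.6 CPM (0 lower, 6 higher of 6), with Foxa2 at 13.0 ± 13.7 (SD, n = 3), and 1 library carried much of that mean, with their sum at 40.5 CPM. The part of these markers in the Gata2 values was not tested.

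In single cells of TX1072 the members were detected in 40.1 to 84.1% of cells at day 0 and in 0.615 to 19.1% at day 1. There was 1 culture per day, the population that also gave bulk replicate 1, so days are described without a test, and the intervals (95%, exact binomial) cover counting error only. Pramel6 had a unique molecular identifier (UMI) count in 65.7% of cells at day 0 (59.8 to 71.3) and 14.5% at day 1 (10.8 to 18.8), and Pramel7 in 65.3% and 19.1%. Stk33 was seen in 84.1% (79.3 to 88.2) and then 9.54%, and Cd3d in 83.8% (78.9 to 87.9) and then 13.2%. Ffar3 was seen in 40.1% (34.3 to 46.1) and then 0.615%. Cells of day 0 and day 1 had medians of 138565 and 124651 UMIs. With each cell thinned to 40000 UMIs, which left out no cell, the shares were 57.4 and 10.8% for Pramel6, 50.5 and 15.1% for Pramel7, 75.8 and 7.69% for Stk33, 76.2 and 9.85% for Cd3d, and 30.0 and 0.308% for Ffar3.

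The return of Gata2 was also present at the level of cells. It had a UMI in 58.5% of cells at day 0 (52.4 to 64.4), in 2 cells (0.615%) at day 1, and in 5.28%, 10.5% (7.04 to 14.9) and 7.35% (4.55 to 11.1) at days 2, 3 and 4. After thinning the shares were 48.0, 0.308, 4.11, 7.78 and 4.04%. Positive cells had a median of 9 Gata2 UMIs at day 0, 1.5 at day 1, and 3.5, 4 and 5 at days 2 to 4, with up to 40 in a cell of day 3. In the sum over cells Gata2 made up 51.5, 0.0724, 2.78, 6.38 and 3.87 CPM from day 0 to day 4. After day 0 the bulk level of TX1072 was thus highest at day 4 and the single-cell level at day 3.

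At day 4 the other 5 genes were close to undetected in cells. Pramel6 and Cd3d had no UMI in 272 cells, which allows a share of cells with a UMI of up to 1.10% when the limit is set at 3 cells (the exact 95% interval ends at 1.35%). Ffar3 and Stk33 were each found at 0.368%, and Pramel7 at 0.735%. No cell type that should lack these genes was analysed here, and the part of free RNA in these shares was not tested.

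**Figure D5:**
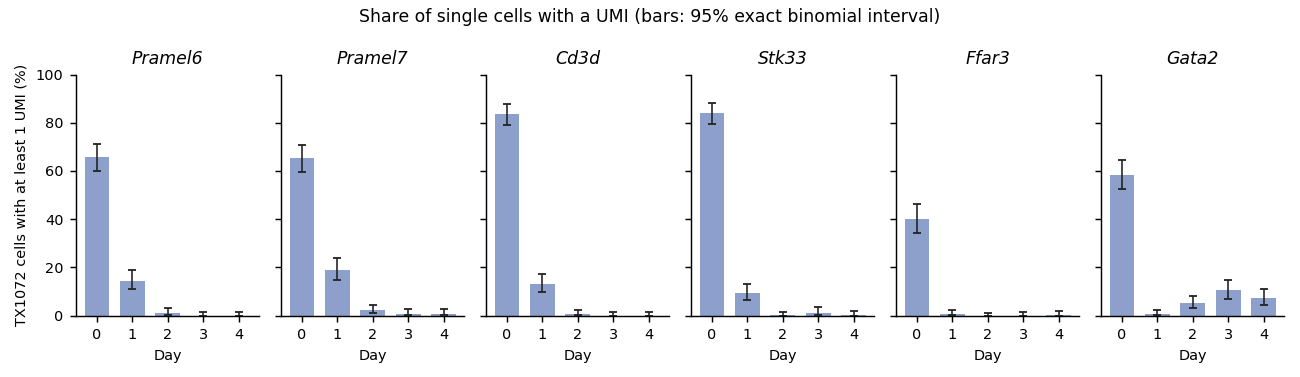
Share of TX1072 cells with at least 1 UMI (percent, y axis) by day for 6 genes, with 95% exact binomial intervals. Day 0 shares lie between 40.1 and 84.1%, and after day 1 Gata2 rises again, to 10.5% at day 3, while the other 5 genes stay at or below 2.35%.

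Both the number of cells with a UMI and the UMI count in positive cells fell. The 2 measures are not independent, since fewer UMIs per cell also leave fewer cells with any. How the loss was shared among cells was not tested. The median UMI count in positive cells went from day 0 to day 1 from 14 to 5 for Pramel6, from 11 to 6.5 for Pramel7, from 7 to 1.5 for Ffar3 (only 2 cells at day 1), from 15 to 5 for Stk33 and from 22 to 6 for Cd3d. In thinned cells the median number of the 6 genes, Gata2 included, found per cell was 4 at day 0 and 0 at day 1. At day 0 52.0% of cells held 4 or more and 2.17% held none, and at day 1 0.615% held 4 or more and 65.2% held none. In 13 of the 15 pairs of the 6 genes at day 0, the first gene was found in a larger share of the cells with the second than of the rest, as a description with no test. Pramel6 was found in 61.1% of cells with Cd3d and 45.5% of the rest, and Stk33 in 78.7% of cells with Cd3d and 66.7% of the rest, and the smallest difference of the 13 was that of Pramel7 with Ffar3 (50.6 and 50.5%). The 2 pairs the other way were Gata2 with Ffar3 (41.0 and 51.0%) and with Stk33 (47.6 and 49.3%). Cd3g fell from 77.6% of cells at day 0 to 4.00% at day 1, and Ffar2 from 37.9% to 0.

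Allele-assigned UMIs gave the same sides as bulk for Cd3d. At day 0 1995 Cd3d UMIs were from B6 and 276 from Cast (87.8% B6, 86.4 to 89.2), and at day 1 162 and 7 (95.9%, 91.7 to 98.3). Cd3g had 257 and 18. Ffar3 had 93 and 120 (43.7%, 36.9 to 50.6), an interval that includes an equal share. Stk33 had 849 and 684 (55.4%, 52.9 to 57.9), above the equal share that it had in bulk. Gata2 had 1 and 6 UMIs.

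Unspliced UMIs were numerous enough at day 0 for Stk33, Cd3d and Pramel7, while Gata2 had 5 beside 2016 spliced UMIs and Pramel6 had 0 beside 3349. For these last 2 genes a 0 need not mean that molecules were absent. Pramel6 had 397 UMIs in the total count of day 1, and Gata2 117 at day 2, each with 0 spliced and 0 unspliced. The unspliced share of Stk33 was 31.1% at day 0 (30.0 to 32.2) and 17.5% at day 1 (13.8 to 21.6), and that of Cd3d was 6.18% (5.61 to 6.79) and 1.54% (0.622 to 3.15). These are sums over the cells of 1 culture a day, in which single cells hold many of the UMIs, so the days were not compared by a test. Later days went the other way for Stk33, where days 2, 3 and 4 had 23, 8 and 22 unspliced beside 13, 16 and 11 spliced UMIs. Those counts rest on very few cells, since a Stk33 UMI was found in 1, 3 and 1 cells on these days. Pramel7, which kept the most RNA at day 1, had 5.58% (4.76 to 6.50) and 4.46% (2.96 to 6.43). At days 2, 3 and 4 Pramel7 had 2, 0 and 14 unspliced beside 123, 15 and 20 spliced UMIs, with a UMI in 8, 2 and 2 cells.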

How the data were processed

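The authors deposited raw counts per gene. For bulk RNA they aligned reads with STAR 2.5.2b to mm10 (GRCm38) with strain SNPs masked and counted uniquely aligned reads over exons with featureCounts, with separate count tables for reads assigned to B6 or Cast. TX1072 libraries were stranded, with paired reads of 50 bases and 15 PCR cycles, and deletion line libraries had paired reads of 100 bases and 10 cycles. For single cells they deposited UMI counts (total, B6, Cast, spliced, unspliced) made with 5-base UMIs. The cells analysed are those in the study's list of retained cells, 1472 of 2000 capture sites. All 2000 site names and count profiles were distinct, and no doublet caller was run.

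Counts were scaled by TMM and tested with edgeR 4.0.16 (quasi-likelihood, R 4.3.3), 1 fit for TX1072 (18871 genes) and 1 for the 2 deletion lines (19885 genes), after edgeR's filter on low counts, with an adjusted p under 0.05 by Benjamini-Hochberg. The log2 CPM had a prior count of 0.5. Alleles were fitted per line at day 0 with the library as a block. DESeq2 1.42.0 was an alternative, as were its size factors, no filter on low counts, the replicate block, leaving out each replicate, leaving out the TXdXicCast libraries of day 0, and TMM from autosomal genes (chosen after seeing the data). Fits were checked on simulated data. Python 3.11.15, SciPy 1.17.1 and NumPy 2.4.6 served single cells.

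Genes named are the 7 members, the 3 most similar genes of each, the nearest tested gene on each side, 3 genes next in rank at day 4, and up to 4 called genes of each of 10 lists with the largest change. The counts of 1 of these lists are not reported here. Members and lists were chosen with earlier results of these data known. Replicates of a line were differentiated on different days, which links the libraries of 1 number within a line: deviations from group means correlated over 0.1 in 20 of 30 same-numbered TX1072 pairs (median 0.186; other pairs 7 of 60, median −0.101) and in 49 of 60 within a deletion line (median 0.271). Whether a number marks the same day in both deletion lines is not given in the sources used here. The main fits had no block. Depth was 16906263 to 57920260 counts per bulk library. Intervals and floors of 3 counts cover counting error only.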

Additional observations from a re-analysis of the deposited data

Results flagged for a closer look

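Single cells of each day came from 10 capture columns, and 12 sets of 10 columns (6 genes at days 0 and 1) were screened for a column far from the others, a rule that chance meets in about 1 of 20 sets of continuous values. In 3 sets, all at day 1, 1 column stood apart by its summed UMI counts. Gata2 was at 0.886 CPM in column 2 (30 cells, 2 of them with a UMI) and at 0 in the other columns. Ffar3 was at 0.519 CPM in column 7 (34 cells, 1 with a UMI), with 0.242 CPM in the nearest column and 0 in the rest. Stk33 was at 26.6 CPM in column 4 (33 cells, 6 with a UMI), with 12.7 CPM in the nearest column. The Gata2 and Ffar3 values thus rest on 1 or 2 cells each, and where nearly all columns are at 0 a single positive column always stands apart, so the rate of 1 in 20 does not hold for these 2 sets.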

How the results depend on the processing

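Of the values for single genes under alternatives, 1164 kept their direction and side of the threshold or moved within the replicate spread, 36 moved, 5 gained a call, 3 lost one and 12 changed sign. Of the counts and main values, 154 held and 7 moved. Members called between the deletion lines at day 0 went from 0 to 1 with DESeq2 and to 1 with the replicate block (Cd3d, edgeR adjusted p = 0.034), at day 4 to 1 without the filter on low counts (Gata2, edgeR adjusted p = 0.029), and in the change from day 0 to day 1 to 1 with DESeq2 and 1 without the filter (Ffar3, adjusted p = 0.036 and 0.035). The replicate block changed no other call of a member. It pairs the deletion lines by number, and same-numbered libraries of the 2 lines at 1 day correlated over 0.1 in 9 of 15 pairs (median 0.269), so across lines they may share only a number. Neighbours called higher in TX1072 went at day 1 from 0 to 1 with TMM from autosomal genes and at day 4 from 1 to 0 without replicate 3.

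Sign changes were all in uncalled values, given here as the range over fits without 1 replicate. Between the deletion lines at day 0 Stk33 ranged from −0.14 to 0.034 and Srarp from −0.0122 to 0.23. At day 1 Gata2 ranged from −0.22 to 0.45, and was −0.0077 without the TXdXicCast libraries of day 0. In the change to day 1 Pramel6 ranged from −0.045 to 0.00608, Pramel7 from −0.13 to 0.25 and Gata2 from −0.54 to 0.31. Of the allele ratios, Stk33 ranged from −0.0860 to 0.021 in TX1072 and from −0.0952 to 0.079 in TXdXicCast, and Srarp from −0.0417 to 0.052 in TXdXicB6. The cause was not tested.

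Numbers of genes called between the deletion lines depended on the setting. At day 0 they were 3778, and 2329 and 714 without replicates 1 and 3. At day 1 they were 76, and 147 with DESeq2, 198 without filter, 118 with the block and 3 to 20 with a replicate left out. At day 2 they were 70, 139, 200, 112 and 0 to 24, and at day 3 231, 504, 575, 413 and 10 to 38. At day 4 1071 became 1619 with DESeq2, 1636 with the block and 305 to 416 with a replicate left out. For the change from day 0 to day 1 773 became 1903, 1395 without filter, 2017 with the block and 0 to 234, to day 2 1101 became 2179, 2310 with the block and 1 to 148, to day 3 1670 became 2600, 2818 with the block and 1 to 826, and to day 4 2817 became 89 to 1587 with a replicate left out. The comparison of change without the TXdXicCast libraries of day 0 could not be made, since it needs them. Levels under 3 counts a group, which include most Srarp values and some Cd3d values from day 2, are at the limit of the depth.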
